A study of Mus musculus with 12 samples.

Results

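RNA that came down with U1-70K was compared with input RNA of the same lysates in mouse brain taken 90 min after maximal electroconvulsive stimulation (MECS). The comparison rests on 6 of the 12 libraries of the series, chosen by their titles: the 3 U1 precipitates and the 3 inputs that carry the prefixes M1, M2 and M3, paired by prefix. All groups are male C57BL6JL mice aged 3 to 5 months, and the tissue is mixed cortex and hippocampus. The stimulated mice received 85 mA for 1 s through ear clips, convulsed, and were killed 90 min later. Naive mice, handled alongside, gave the other 6 libraries in the same 2 kinds and enter only where they are named. Homogenized tissue was irradiated at 400 mJ/cm2 to crosslink RNA to protein, input RNA was removed after lysis, and the rest of the lysate was precleared and incubated with an antibody against U1-70K. No control precipitate was analysed here, so "higher with U1" means only higher in the precipitate than in input, and association with U1 and other differences in recovery cannot be told apart. Input and precipitate of a prefix come from the same lysate and so from the same cells. Between animals or states, fewer cells of a type and less RNA per cell cannot be told apart in such whole-tissue RNA. A prefix is called an animal below. The labels do not say whether it stands for 1 mouse or for pooled tissue, and p-values measure the spread between these libraries.

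The U1 small nuclear ribonucleoprotein (U1 snRNP) is the splicing particle that recognises the start of introns: the 5′ end of its RNA pairs with the 5′ splice site of a nascent transcript. It also sits on sites inside long introns, where it keeps polymerase transcripts from being cut and polyadenylated too early. U1-70K, encoded by Snrnp70, is one of its core proteins and binds the U1 RNA directly. Its usual partners are therefore unspliced transcripts in the nucleus, whereas most of a neuron's spliced mRNA lies in the cytoplasm, dendrites and axons.

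The library kit marks strand, and reads were single-end reads of 100 bp. Gene counts per library were 1026993 to 1428407 in input and 1232946 to 1666851 in the precipitate, which is 1.42 to 1.60% of the listed reads, and 88.9 to 90.7% of reads were listed in no gene. The counts lay mainly in annotated genes that sit opposite another gene. Genes that lie opposite the exons of another gene made up 1.53% of the annotation and held 20.3% of the counts of these 6 libraries. A single ribosomal RNA gene of that group, CT010467.1, held on average 8.37% of gene counts in input and 14.7% with U1. Genes opposite introns made up 11.0% and held 25.0%, and the 72.4% with nothing on the other strand held 13.7%. Each annotated gene is therefore called a feature, and the opposite-strand gene that contains it is called its host. A value under a host's name is the sum of counts of such features in CPM, counts scaled to a common library size by TMM. A value under a feature's own symbol is the count so annotated. Without the strand setting of the counting, reads of that gene and of RNA from the other strand cannot be told apart.

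The hosts highest with U1 after stimulation included genes of blood vessel walls and a few genes of lipid metabolism and signalling. The single feature under Tagln, which encodes transgelin, an actin-binding protein of smooth muscle (chromosome 9, 45929619 to 45936058, minus strand, GRCm38), held 208, 167 and 117 CPM in the inputs of animals 1 to 3 and 673, 1149 and 735 CPM in the precipitates. Every precipitate lay above every input, and the log2 ratio of U1 to input was 2.35 (SE 0.13, adjusted p = 1.2e-19 by edgeR's quasi-likelihood test). The feature under Pln, the gene of phospholamban, which restrains the calcium pump of muscle (chromosome 10, 53337667 to 53345987, plus strand), had 43.7, 46.2 and 28.8 CPM in input against 127, 198 and 129 CPM with U1. The intron feature of Notch3, a receptor of vascular smooth muscle and pericytes (chromosome 17, 32120820 to 32166852, minus strand), rose from 117, 106 and 77.4 CPM to 362, 417 and 273 CPM, a log2 ratio of 1.80 (SE 0.13). For these 3 genes the groups did not overlap, which the rule for naming the highest and lowest hosts required. Among all tested hosts 26.4% did not overlap. The lowest input was that of animal 3 each time.

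The intron feature of Ebf1, a transcription factor gene active in mural cells, had 33.4, 49.8 and 19.8 CPM in input and 103, 171 and 79.8 CPM with U1. That of Fgd5, which encodes an exchange factor of endothelial cells, rose by a log2 ratio of 1.90 (SE 0.20). The highest ratio, 2.35 (SE 0.35), belonged to the intron feature of Paqr5, a membrane progesterone receptor gene, at a low level of 6.57 ± 2.25 CPM in input and 33.1 ± 6.11 CPM with U1 (SD, n = 3 each). Degs2, a sphingolipid desaturase and hydroxylase gene, had a log2 ratio of 2.19 (SE 0.29), and Galnt15, a glycosyltransferase gene, one of 2.03 (SE 0.25). The remaining 4 of the 12 highest named hosts were Slc19a3 (1.84), a thiamine transporter gene, Lrrk1 (1.77), a kinase gene, Ifi35 (1.76), an interferon-induced gene, and Il34 (1.75), a ligand gene of the microglial receptor Csf1r. Ifi35 was the only one of these 12 read from an exon feature.

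The hosts lowest with U1 included genes of synaptic and other neuronal proteins. The feature under Syp, which encodes the synaptic vesicle protein synaptophysin (chromosome X, 7638471 to 7653256, plus strand), held 4238, 2319 and 4508 CPM in input and 973, 650 and 683 CPM with U1. Every precipitate was below every input, which the naming rule required of these hosts, at a log2 ratio of -2.23 (SE 0.13, adjusted p = 1.9e-19 by edgeR). The exon feature of Ncald, a neuronal calcium sensor gene (chromosome 15, 37366175 to 37792570, minus strand), lies at 99.6% of the host's length and fell from 369, 206 and 273 CPM to 71.7, 61.5 and 58.6 CPM. The exon feature of Slc32a1, the vesicular transporter of GABA, fell from 201, 123 and 125 CPM to 48.3, 39.2 and 40.5 CPM. The precipitates of these 3 genes were closer to each other than the inputs were.

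Among the other low hosts, the feature under Eps8l3 had the lowest log2 ratio, -2.73 (SE 0.27), at 56.9 ± 8.19 CPM in input and 8.61 ± 2.64 CPM with U1 (SD, n = 3 each). Kcnmb4, which encodes a neuronal subunit of calcium-activated potassium channels, was at -1.93 (SE 0.18), and Gabra5, a GABA-A receptor subunit gene, at -1.69 (SE 0.20). Qdpr, which recycles the tetrahydrobiopterin cofactor of monoamine synthesis, was at -1.82 (SE 0.13). The other 5 of the 12 lowest named hosts were Smim13 (-2.08), Gal3st3 (-1.95), a sulfotransferase gene, Hopx (-1.75), a homeodomain gene, Tmcc2 (-1.72) and Nacc2 (-1.65), a transcriptional repressor gene. Of these 12 hosts, 5 were read from exon features, 5 from features that span exon and intron, and 2, Tmcc2 and Gabra5, from intron features.

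**Figure D1:**
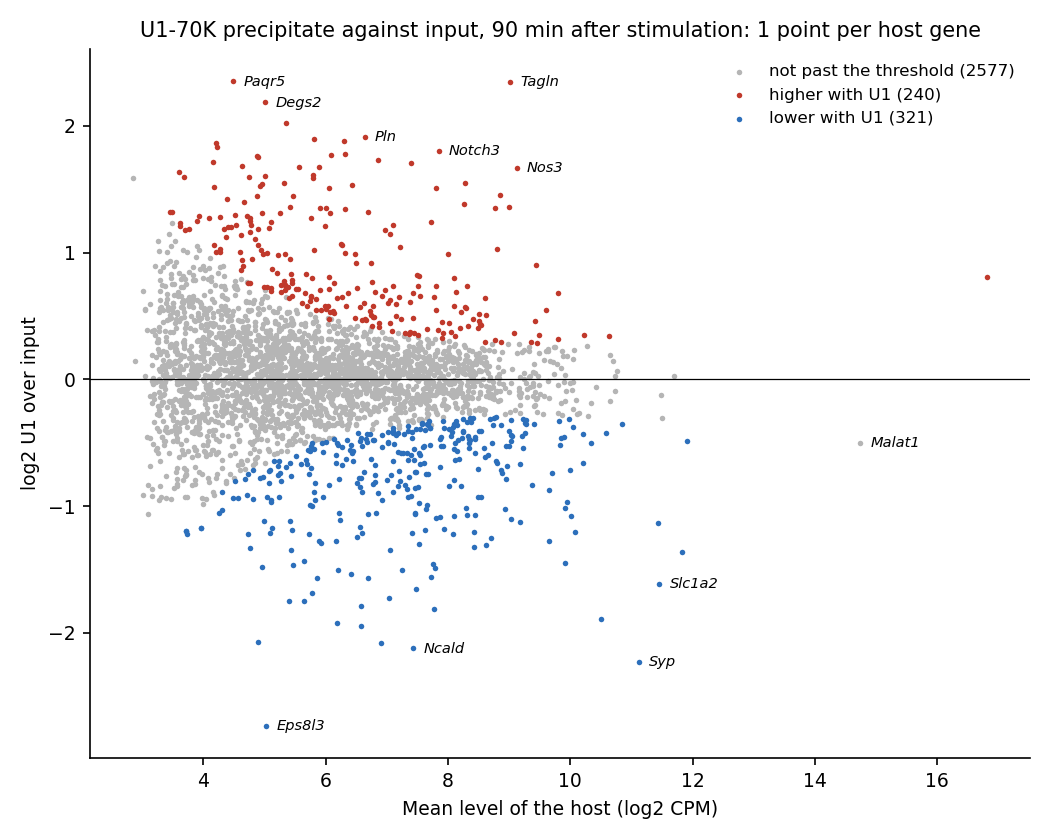
Each point is 1 of the 3138 tested host genes, with its mean level (log2 CPM) on the x axis and the log2 ratio of the U1-70K precipitate to input on the y axis. Red points (240) were higher and blue points (321) lower with U1 at adjusted p under 0.05, grey points did not pass, and Syp and Slc1a2 lie low at high levels while Tagln and Nos3 lie high.

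Over all genes, 240 of 3138 tested hosts (7.65%) were higher with U1 and 321 (10.2%) were lower, which is 17.9% in all (13.8% of features), by edgeR with animal as a block. Of the features themselves, 647 of 10791 (6.0%) were higher and 841 (7.79%) lower. The U1 and input values did not overlap in 26.4% of hosts and 24.5% of features. The counts of called features were smaller without the pairing or with an animal left out, which also leaves fewer libraries. Without the animal block 356 were higher and 562 lower, and leaving out animal 2 or animal 3 gave 379 and 427 higher. DESeq2 called 208 features higher and 428 lower. For hosts, 141 and 210 were called without the block and 114 and 202 by DESeq2.

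**Figure D2:**
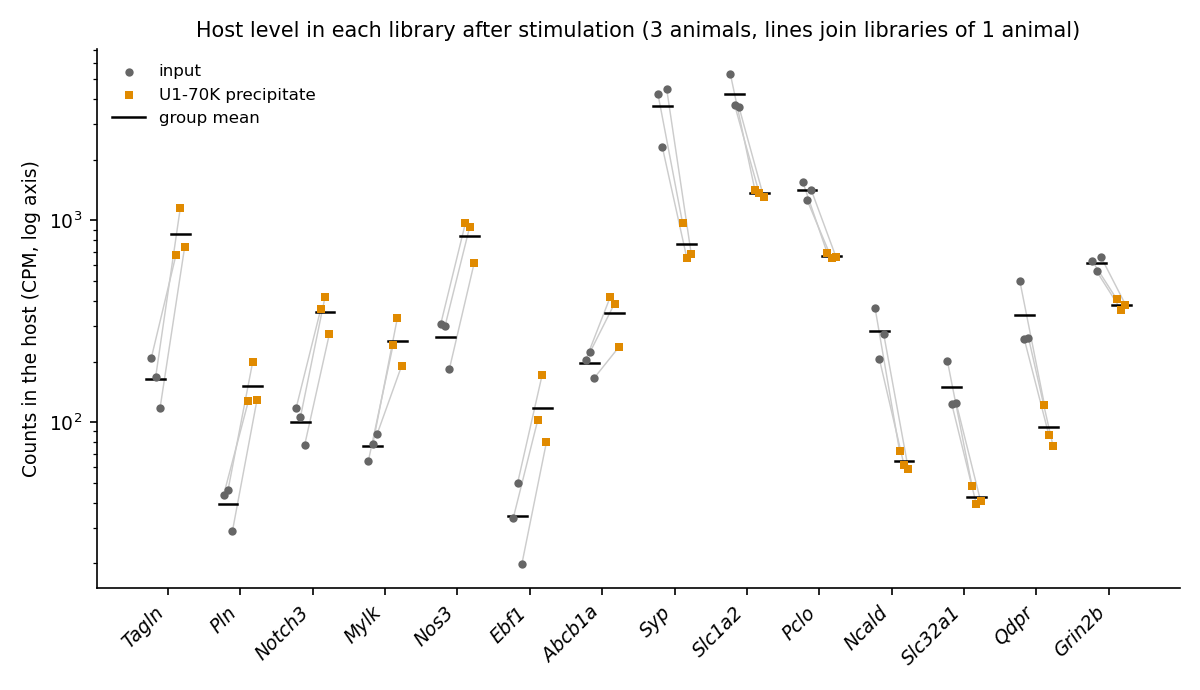
Level of 14 named hosts (CPM, log axis) in the 3 input libraries (grey circles) and the 3 U1-70K precipitates (orange squares) of stimulated mice, with group means as black bars and thin lines joining the libraries of 1 animal. The 7 hosts on the left, from Tagln to Abcb1a, are higher in every precipitate of the same animal, and the 7 on the right, from Syp to Grin2b, are lower.

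Read by host, every tested gene of the vessel lists was higher with U1, where 7.65% of all hosts were. The lists were chosen with earlier results of these data known, so these counts are a description. All 5 tested smooth muscle and pericyte hosts rose (Tagln, Pln, Notch3, Mylk and Abcc9), with a median log2 ratio of 1.80 against 0.02 over all hosts. The 2 features inside introns of Mylk, the myosin light chain kinase gene that drives smooth muscle contraction (chromosome 16, 34745210 to 35002420, plus strand), together had 64.5, 77.9 and 87.3 CPM in input and 241, 329 and 191 CPM with U1. Abcc9, a subunit of the potassium channel of pericytes, was at 0.83, and without animal 1 at 0.74, which did not pass. All 3 tested endothelial hosts rose as well, with a median of 0.90. Nos3, the endothelial nitric oxide synthase gene (chromosome 5, 24364810 to 24384474, plus strand), went from 308, 301 and 185 CPM to 971, 932 and 613 CPM, with no overlap between the groups. Abcb1a, the efflux pump of the blood-brain barrier, went from 202, 222 and 166 CPM to 417, 387 and 236 CPM. Slc2a1, the barrier's glucose transporter, was at 0.90 (SE 0.11), with inputs and precipitates that overlapped. Tbx18, a transcription factor gene of pericytes and meninges, was the single tested fibroblast host and was at 1.27 (SE 0.20).

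By their own symbols the vessel genes were more mixed, and 5 of them were tested only because of the precipitates. The filter on low counts asks for 7.81 CPM in 3 libraries, and no input of Cox4i2, Tbx3, Myh11, Gja4 or Gata2 reached it, so these features had to be high with U1 to be tested and their values are a description. Among all tested features 6.0% rose and 7.79% fell. Of the 8 smooth muscle and pericyte features at that level in at least 1 library of each kind, none rose and 1 fell. The 3 tested through U1 alone were Cox4i2, a subunit of the respiratory chain typical of pericytes (2.49, SE 0.68), Tbx3, a transcription factor gene (2.19, SE 0.45), and Myh11, smooth muscle myosin (1.73, SE 0.47). The feature that fell was Pln (-0.36, SE 0.13), and the feature Tagln, which lies opposite Gm48529, was at 0.00 (SE 0.17). Of 11 endothelial features present in both kinds of library, 2 rose and none fell: Flt1, a receptor for vascular growth factor (1.17, SE 0.26), and Nos3 (0.61, SE 0.19). The other 2 tested, through U1 alone, were Gja4, a gap junction gene of arterial endothelium (2.84, SE 0.49), and Gata2, an endothelial transcription factor gene (2.27, SE 0.50). They have no gene on the other strand and were low, at 2.92 ± 2.95 and 3.34 ± 0.94 CPM in input (SD, n = 3 each). Their precipitates held 20.5 ± 8.32 and 16.5 ± 5.13 CPM. Foxc1 and Slc22a8, genes of meningeal fibroblasts, rose by 0.82 (SE 0.20) and 1.56 (SE 0.37), and Ptgds, a prostaglandin synthase gene of the meninges, fell by 1.08 (SE 0.30). Several of these calls did not pass when 1 animal was left out, which also leaves fewer libraries to test. Without animal 2, Myh11 (1.38), Slc22a8 (1.25) and Ptgds (-0.66) did not pass, and without animal 3 Cox4i2 (2.02) did not. The features Nos3 (0.53 to 0.65) and Pln (-0.41 to -0.33) did not pass without any 1 of the 3 animals, and without the animal block Nos3, Pln and Slc22a8 did not pass.

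Summed over the whole list, the 6 smooth muscle and pericyte hosts held 333 to 466 CPM in input and 1371 to 2146 CPM with U1, and the 4 endothelial hosts 672 to 1163 and 1495 to 2535 CPM. By own symbol the sums were 580 to 634 and 601 to 662 CPM over 21 smooth muscle features, and 330 to 379 and 431 to 497 CPM over 28 endothelial features. Of the 15 blood cell markers, 9 were at 0 in all 6 libraries. Neither of the 2 blood features present in both kinds of library passed. Clec1b, a receptor of platelets, was tested through U1 alone and had 2.21, 0 and 1.93 CPM in input and 14.5, 10.8 and 9.27 CPM with U1. None of the 6 tested microglial features passed the test (P2ry12 0.00, Csf1r -0.13, Cx3cr1 -0.55), and no microglial host was tested.

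Astrocyte genes moved the other way. The intron feature of Slc1a2, the main glutamate transporter of astrocytes (chromosome 2, 102658659 to 102790784, plus strand), held 5335, 3733 and 3649 CPM in input and 1415, 1363 and 1310 CPM with U1, a log2 ratio of -1.62 (SE 0.12). Aldh1l1, a folate enzyme gene that marks astrocytes, was the other of 3 tested astrocyte hosts that fell (-1.06, SE 0.17), and Fgfr3 was at -0.32 (SE 0.14). Among all hosts 10.2% fell, and among all features 7.79%. By own symbol 6 of 10 tested astrocyte features fell and none rose (5 of the 9 present in both kinds of library, as Aldoc was tested through input alone). They included Aldoc, a glycolytic enzyme (-2.88, SE 0.58), Slc1a2 (-1.84, SE 0.17), Glul, glutamine synthetase (-1.84, SE 0.30), the glutamate transporter Slc1a3 (-1.41, SE 0.50) and the bicarbonate transporter Slc4a4 (-1.15, SE 0.35). Slc1a3 and Slc4a4 did not pass without animal 1 (-1.45 and -0.67), without animal 3 (-0.81 and -1.03) or without the animal block. Summed over the list, the 16 astrocyte features held 536 to 558 CPM in input and 279 to 291 CPM with U1.

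Of the oligodendrocyte genes, some myelin features were lower by their own symbols. Mbp, myelin basic protein, fell from 161 ± 25.9 to 42.4 ± 2.2 CPM (SD, n = 3 each; log2 ratio -1.92, SE 0.17), and Mobp was at -1.43 (SE 0.24). In all, 3 of 7 tested features of the list fell and none rose, where 7.79% of all features fell. Mog (-0.44), Cnp (0.19) and Trf (-0.02) did not pass. The 2 tested oligodendrocyte hosts, both read from introns, did not pass: Mbp was at 0.04 (SE 0.25) and Mog at -0.64 (SE 0.29). The difference between the readings by symbol and by host was not tested. Of 4 tested features of oligodendrocyte precursor genes, 1 rose and none fell. It was Gpr17 (1.58, SE 0.13), which lies opposite introns of Lims2. Neither of the 2 tested precursor hosts passed.

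Neuronal markers split by where they were read. None of the 3 tested hosts of the excitatory list passed: Cux2 was at 0.06 and Prox1 at 0.00, both read from introns. By own symbol Camk2a, the kinase whose mRNA is abundant in dendrites, fell: it had 137, 135 and 204 CPM in input and 38.1, 30.1 and 43.9 CPM with U1. Slc17a7, the vesicular glutamate transporter, also fell (-1.62, SE 0.24). Nrgn, the calmodulin-binding protein neurogranin, was the exception of the list and rose from 76.3 ± 4.05 to 231 ± 40.3 CPM (SD, n = 3 each). Of 4 tested inhibitory hosts, Slc32a1 and Reln, an extracellular protein of interneurons (-0.68, SE 0.15), fell, and Adarb2 (0.16) and Dlx6 (-0.01) did not pass. Among all hosts 10.2% fell. None of 7 tested inhibitory features passed, among them Gad1 at 0.01.

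Of the synaptic genes, 2 of 16 presynaptic and 5 of 11 postsynaptic hosts passed the test, against 17.9% of all hosts. Of 16 tested presynaptic hosts, 2 fell, Syp and Pclo, and none rose, with a list median of 0.04. Pclo, a giant scaffold protein of the active zone, fell from 1411 ± 146 to 666 ± 20.9 CPM (SD, n = 3 each). Hosts near 0 included Snap25 (0.05), Syn1 (-0.02) and Syt1 (-0.09). By own symbol 6 of 23 tested presynaptic features fell and none rose, where 7.79% of all features fell: Pcsk1n (-2.65, SE 0.51), a neuropeptide processing inhibitor, Cplx1 (-2.36, SE 0.46), a vesicle fusion clamp, Bsn (-1.68, SE 0.15), an active zone scaffold, Syt1 (-1.21), the calcium sensor of release, Pclo (-1.20) and Rims1 (-0.80). The list median was -0.48, and that over all features 0.02. Pcsk1n and Cplx1 entered the test through input alone, since none of their precipitates reached the 7.81 CPM that the filter on low counts asks for in 3 libraries. Of the 19 presynaptic features present in both kinds of library, 4 fell. Rims1 did not pass without animal 1 (-0.70) or 3 (-0.85), Syt1 not without animal 2 (-0.99), and neither without the animal block.

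Of 11 tested postsynaptic hosts, 4 fell and 1 rose. Grin2b, an NMDA receptor subunit gene, was at -0.69 (SE 0.10), Homer2, a scaffold gene, at -0.58 (SE 0.13) and Grin1, the obligatory NMDA receptor subunit gene, at -0.49 (SE 0.12). Lrrc7 was at -0.35, and Shank2, another scaffold gene, rose by 0.42 (SE 0.12). Without animal 1 Homer2 (-0.39) and Grin1 (-0.44) did not pass, without animal 2 Lrrc7 (-0.29) did not, and without animal 3 Shank2 (0.23) and Lrrc7 (-0.36) did not. Shank2 and Lrrc7 also did not pass without the animal block. Among all tested features 7.79% fell and 6.0% rose. By own symbol 9 of 24 tested postsynaptic features fell, none rose, and every one of the 24 had a negative log2 ratio. The lowest were Camk2a (-2.08, SE 0.17), Dlgap3 (-1.78, SE 0.26), Ppp1r9b (-1.69, SE 0.15), Shank1 (-1.41, SE 0.15) and Dlg4, which encodes PSD-95 (-1.41, SE 0.34). Without animal 3, 5 of these 9 did not pass, among them Dlg4 (-1.03), Grin2b (-0.89) and Shank2 (-0.82), and 4 did. Without animal 1, without animal 2 and without the animal block, 2 of the 9 did not pass in each case, Grin2b (-0.85 without animal 2) among them. Of 13 tested features of mRNAs found in neurites, 9 fell and 1, Nrgn, rose, with a median of -1.41. They included the microtubule proteins Map1b (-1.67, SE 0.22), Map2 (-1.49, SE 0.27) and Map1a (-1.04, SE 0.14) and the elongation factor Eef2 (-1.63, SE 0.31), while Actb (-0.05) and Eef1a1 (-0.17) did not pass. Read by host, 1 of 3 tested genes of the neurite list fell, Map2 (-0.61, SE 0.11), where 10.2% of all hosts fell. The median of these 3 hosts was -0.11.

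**Figure D3:**
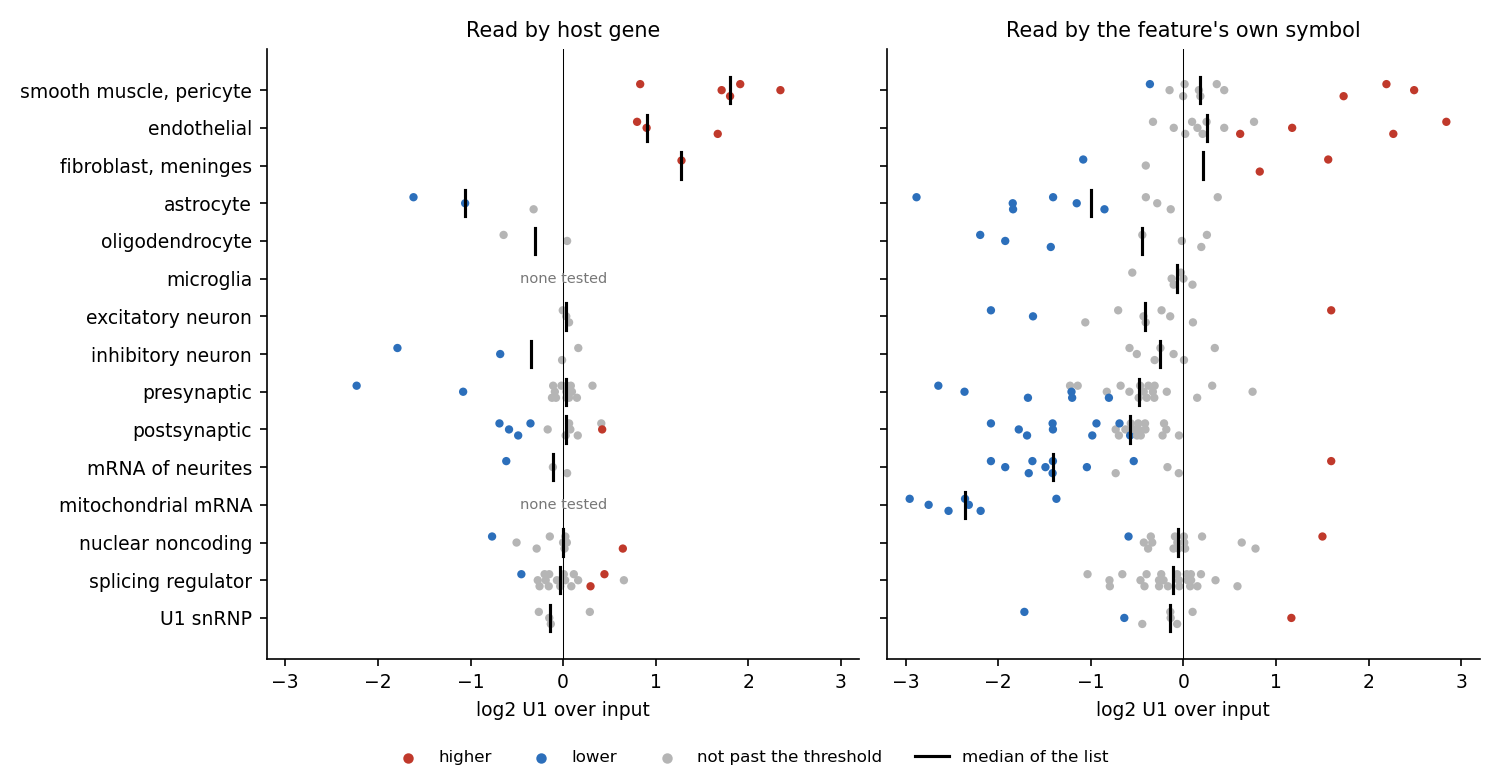
Log2 ratio of U1 to input of each tested member of 15 gene lists, read by host gene on the left and by the feature's own symbol on the right; red points were higher, blue lower, grey did not pass, and black bars are list medians. The medians of the vessel lists lie right of 0 and that of the astrocyte list left of it in both panels, and the postsynaptic and neurite medians in the right panel lie at -0.57 and -1.41.

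The tested mitochondrial mRNA features all fell with U1. The 7 tested features of this list (of 13) were lower (7.79% of all features were), with log2 ratios from -2.96 for mt-Nd1 to -1.37 for mt-Cytb and a median of -2.36. The feature mt-Nd5, a subunit gene of respiratory complex I, had 3174, 2287 and 3820 CPM in input and 591, 343 and 448 CPM with U1. mt-Nd6, on the other strand at the end of mt-Nd5, had 496, 502 and 994 CPM in input and 242, 44.0 and 182 CPM with U1. The transfer RNA features, of which mt-Tp and mt-Ts1 had no precipitate at the filter's 7.81 CPM, were low as well: mt-Tp (-4.20, SE 0.55), mt-Ty (-2.81, SE 0.32), mt-Ts1 (-2.78, SE 0.52) and mt-Tq (-2.63, SE 0.24). Mitochondrial features together held 0.561, 0.435 and 0.726% of gene counts in input and 0.147, 0.0773 and 0.108% with U1. The share was lower in 3 of 3 pairs (exact paired permutation test, 2-sided p = 0.25, the smallest that 3 pairs allow). Nuclear genes of oxidative phosphorylation did not follow: of 27 tested features present in both kinds of library none rose and 1 fell, and the median over all 28, Cox4i2 included, was 0.02.

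Long noncoding RNAs kept in the nucleus showed no common direction. Of 16 tested features of this list, 1 rose, 1 fell and the median was -0.06, where 6.0% of all features rose and 7.79% fell. The one that rose was the feature annotated as Kcnq1ot1, an antisense RNA that silences its imprinted cluster (chromosome 7, 143203458 to 143296549, minus strand), with 267, 213 and 206 CPM in input and 727, 678 and 540 CPM with U1. It lies opposite introns of Kcnq1, and RNA of both strands cannot be told apart: read by host, Kcnq1 was at 1.46 (SE 0.11) and Kcnq1ot1 at 0.00 (SE 0.10). The one that fell was Snhg14, the host RNA of imprinted small nucleolar RNAs (-0.59, SE 0.11). Snhg14 also has a gene on the other strand, and read by host it was at -0.29 (SE 0.11), which did not pass. Malat1, a nuclear speckle RNA, was at 0.02 (SE 0.12) by its own symbol, with 382, 450 and 591 CPM in input and 475, 389 and 570 CPM with U1. Read by host, Malat1 was the second highest level of all, at 31777 ± 9740 CPM in input and 22867 ± 8580 CPM with U1 (SD, n = 3 each). That difference of -0.50 (SE 0.19) did not pass as a host (edgeR adjusted p = 0.0574) and passed as the single feature Gm37376 (-0.47, SE 0.12). Neat1, the paraspeckle RNA, was at 0.63 (SE 0.37) and Xist at 0.20, both not past the threshold. Of 9 tested hosts of the list, Airn, an imprinted antisense RNA, rose (0.64, SE 0.17) and Pantr1 fell (-0.77, SE 0.24). Among all hosts 7.65% rose and 10.2% fell. Airn was summed from 4 features, of which CT030636.1 passed (1.32, SE 0.46) and the others did not. Airn did not pass without animal 2 (0.47), and Pantr1 did not without any 1 animal (-0.83 to -0.72) or without the block.

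Of 8 tested features of U1 proteins and their partners, 3 passed the test, against 13.8% of all features, and of 4 tested hosts none did. Snrnp70, whose protein was precipitated, was at 0.10 (SE 0.24) by its own symbol, with 21.3, 33.4 and 38.7 CPM in input and 38.1, 27.0 and 33.4 CPM with U1, and at -0.15 (SE 0.18) as a host. Of the 8 features, 2 fell, the U1-associated factors Luc7l3 (-1.72, SE 0.32) and Prpf39 (-0.64, SE 0.14), and 1 rose, Prpf40b (1.17, SE 0.18). None of 24 tested splicing regulator features passed. Of 17 tested hosts in that list 3 passed, against 17.9% of all hosts: Ptbp1, a repressor of neuronal exons, rose (0.45, SE 0.14), Rbfox3, a neuronal splicing factor, rose (0.30, SE 0.11), and Celf5 fell (-0.45, SE 0.10). Prpf39 did not pass without animal 3 (-0.51), Ptbp1 not without animal 2 (0.36) or 3 (0.33), and Rbfox3 not without any 1 animal (0.21 to 0.37). None of these 3 passed without the animal block. Of the other lists, 1 of 6 tested activity-regulated hosts fell (Pcdh8, -1.50, SE 0.16) and 1 of 11 features fell (Vgf, -1.20, SE 0.20). Arc (-0.73), Egr2 (-0.59) and Homer1 (-0.53) did not pass. Ribosomal protein features had 3 higher and 1 lower of 27, where 6.0% of all features were higher and 7.79% lower.

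Whether a feature lay under an exon or an intron of its host went with the direction of its ratio. Of 421 tested exon features, 108 (25.7%) were lower with U1 and 24 (5.70%) higher, with a median log2 ratio of -0.13. Of 2924 tested intron features, 225 (7.69%) were higher and 73 (2.50%) lower, with a median of 0.11. Features that spanned both had a median of -0.06 with 16.6% lower, and features with nothing opposite one of -0.01 with 5.66% lower. Over all features, 6.0% were higher and 7.79% lower. The exon median was below 0 in each animal (-0.21, -0.11 and -0.12) and the intron median above 0 (0.16, 0.03 and 0.15). The lower exon features were also higher in level, with a median log2 CPM of 7.23 against 5.44 for exon features that did not pass, so they were easier to call. The part of level in these counts was not tested.

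Exon features near the 3′ end of their host had the lowest ratios. Each host was cut into 5 equal segments from its start, and the 186 exon features tested in segment 5 had a median of -0.39, with 74 of them (39.8%) lower. In segment 1 the median of 78 exon features was 0.06, with 9 lower. The median of segment 5 was -0.46, -0.27 and -0.40 in the 3 animals, below every other segment of exon features in the same animal. Intron features went from a median of 0.17 in segment 1 to 0.05 in segment 5, and the number lower from 6 of 536 to 23 of 545. Segment 1 minus segment 5 of the intron features came to 0.08, 0.08 and 0.17 per animal after stimulation, and to 0.12, 0.14 and 0.09 in naive mice. These values did not differ detectably between the states (exact permutation test, 2-sided p = 0.8, where 3 against 3 allow 0.1 at best).

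**Figure D4:**
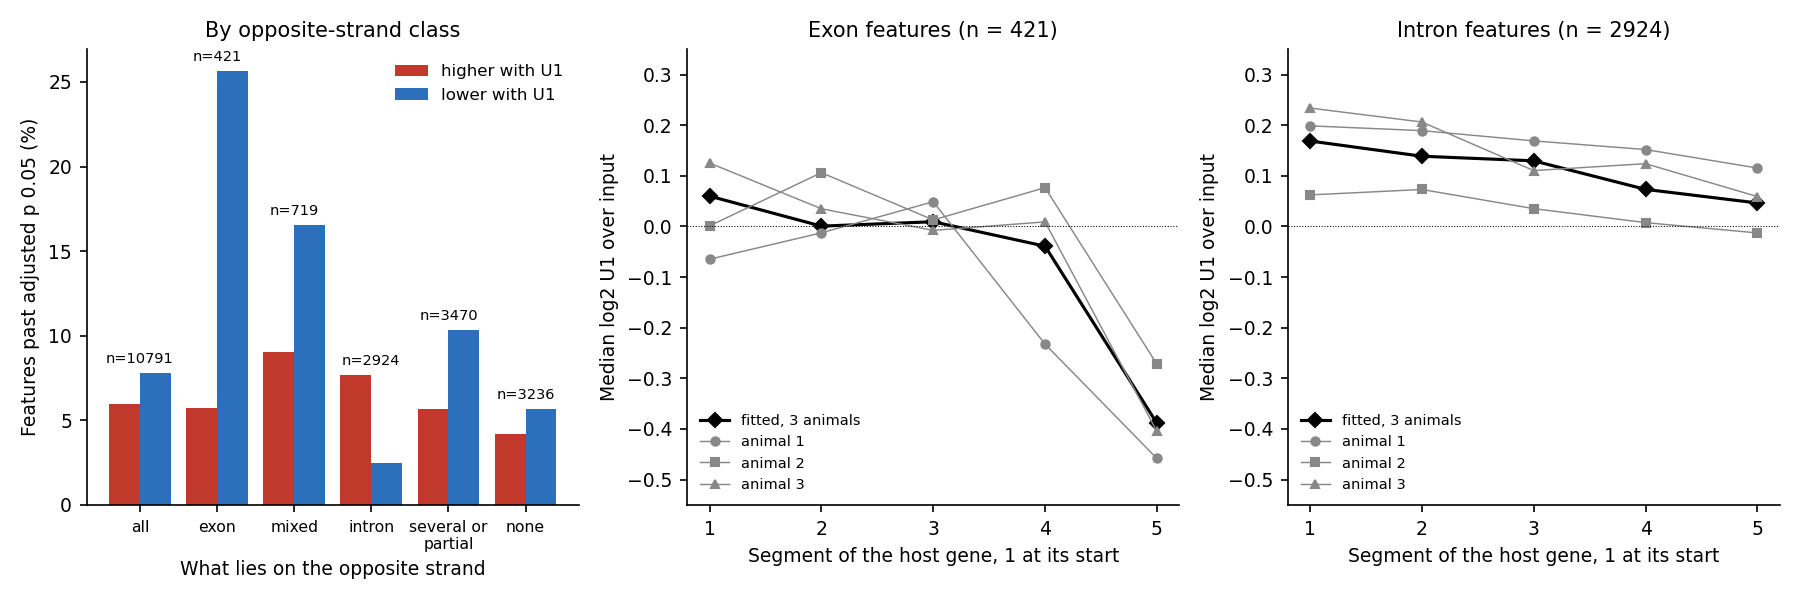
Left, share of tested features higher (red) or lower (blue) with U1 by what lies on the opposite strand, with the number tested; middle and right, median log2 ratio of U1 to input of exon and intron features by segment (1 to 5) of the host gene, fitted over 3 animals (black) and per animal (grey). Exon features are lower in 25.7% of cases, and their median is -0.39 in segment 5, while intron medians go from 0.17 to 0.05.

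Exon and intron features could be compared within single genes. There were 65 hosts with both a tested exon and a tested intron feature, and in 42 of them the intron ratio was above the exon ratio, by a median of 0.20. The examples that follow were chosen after their values were seen. In Grin2b the exon feature Gm22892, annotated as a miRNA inside another Grin2b feature, lies at 94.0% of the gene's length and fell from 171, 151 and 141 CPM to 83.1, 54.1 and 70.5 CPM. The intron feature at 63.7% of the same gene had 118, 154 and 165 CPM in input and 164, 140 and 163 CPM with U1, and its inputs and precipitates overlapped. In Cacnb4, a calcium channel subunit gene, the exon feature at 98.7% fell by 0.92 (SE 0.12), and the 2 intron features had a median of 0.41, 1 of them past the threshold. In Ap1g1, an adaptor protein gene of vesicle traffic, the exon feature fell by 0.54 (SE 0.12), and its intron feature was at 0.71 (SE 0.31), which did not pass. C1ql3 and Chn1 were unlike these, with lower exon features (-1.49 and -1.37) and lower intron features (-0.80 and -1.06).

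Summed over the 65 hosts, log2 of intron over exon counts was -0.99, -0.57 and -0.61 in input and -0.43, -0.37 and -0.33 with U1. It was higher with U1 in 3 of 3 animals, by 0.34 ± 0.19 (SD, n = 3 pairs; exact paired permutation test, 2-sided p = 0.25, the smallest possible). By length of the host, 13.5% of the 620 hosts up to 20 kb and 7.34% of the 586 over 200 kb fell, a difference that was not tested. The medians of these length groups were -0.03 and 0.08. Of 35 hosts with a single exon, 4 rose and 4 fell. Over all tested hosts, 7.65% rose and 10.2% fell.

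**Figure D5:**
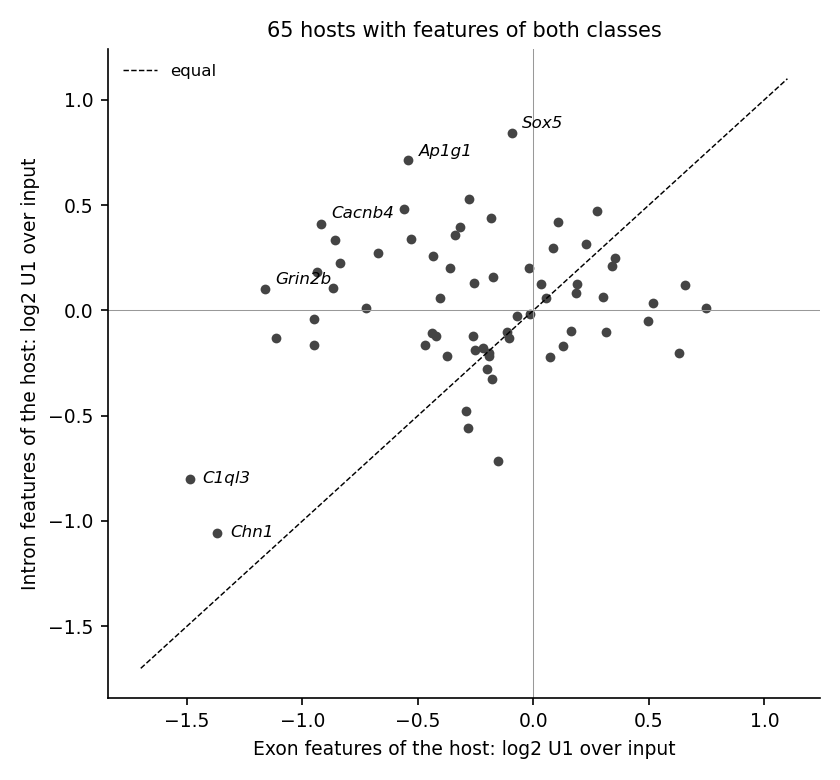
Each point is 1 of the 65 hosts with tested features of both classes, with the log2 ratio of U1 to input of its exon features on the x axis and of its intron features on the y axis (median where there are several). In 42 hosts the point lies above the dashed line of equal values, as for Grin2b, Cacnb4 and Ap1g1.

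As shares of all gene counts, intron features made up 22.9, 26.0 and 25.0% of input and 25.5, 26.1 and 25.1% of the precipitates. Exon features made up 20.7, 16.4 and 16.5% of input and 21.8, 19.1 and 24.6% of the precipitates, which is higher in 3 of 3 pairs (exact paired permutation test, 2-sided p = 0.25). A single ribosomal RNA feature in that class, CT010467.1, held 8.37 ± 2.93% of gene counts in input and 14.7 ± 2.16% with U1 (SD, n = 3 each). Without it the exon share was 10.4 ± 0.75% in input and 8.41 ± 0.94% with U1. The direction of the exon share thus rests on that feature.

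The sequence of the counted regions was set beside these ratios because the 5′ end of U1 RNA pairs with a short splice site motif. The U1 RNA and 6 intron features that hold its 6-base complement GGTAAG on the host's strand are printed, 3 higher and 3 lower with U1, to show what a match in these regions looks like. They are from the GENCODE transcripts of GRCm38, read 5′ to 3′ on the strand of the host, and capitals mark CTTACC in U1 (bases 4 to 9 from its 5′ end) and GGTAAG in the features.
Rnu1a1: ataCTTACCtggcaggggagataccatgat
Kcnip4: gatgttccaactGGTAAGaatgacacatgc
Arl15: gatggctcagttGGTAAGttgacgtctgct
Lrp8: ccctcaggctgaGGTAAGggacttcaggaa
Acsl6: tgttttgttagcGGTAAGgcctcaggtggc
App: ttgaaagttctgGGTAAGttctctgacctc
Cnnm1: gccagtctgagtGGTAAGcactcttcagcc

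The higher features lie in introns of Kcnip4, a potassium channel partner (chromosome 5, 48924210 to 48924239, minus strand), Arl15, a small GTPase (chromosome 13, 114119288 to 114119317, plus strand), and Lrp8, a reelin receptor (chromosome 4, 107807658 to 107807687, plus strand). Their log2 ratios were 0.58 (SE 0.15), 0.51 (SE 0.14) and 0.42 (SE 0.12). The lower ones lie in introns of Acsl6, an acyl-CoA synthetase (chromosome 11, 54344933 to 54344962, plus strand), App, the amyloid precursor protein (chromosome 16, 85082965 to 85082994, minus strand), and Cnnm1, a membrane protein gene (chromosome 19, 43457775 to 43457804, plus strand). Their ratios were -0.99 (SE 0.12), -0.69 (SE 0.12) and -0.43 (SE 0.16).

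The share of regions with the U1 complement differed in direction between classes. In windows of 300 bases from the middle of the longest transcript, GGTAAG lay on the host's strand in 6 of 213 higher intron features (2.82%), in 8 of 70 lower ones (11.4%) and in 5.26% of all 2490 intron windows. On the other strand it lay in 2.82, 2.86 and 4.22% of them. Exon features had it on the host's strand in 2 of 22 higher (9.09%) and 3 of 92 lower windows (3.26%), and features with no opposite gene, on the strand opposite their own, in 8.96% of higher and 4.49% of lower windows. These differences were not tested. The share over all 10156 windows of that length was 5.45% on the strand opposite the feature and 3.37% on the feature's own. The poly(A) signal AATAAA was in 21.4% of lower intron windows on either strand, against 8.92% of higher ones on the host's strand and 7.51% on the other. The windows also differed in base composition, with a median GC content of 50.0% in higher and 44.8% in lower intron features. In 4 groups of intron features by GC content the median log2 ratio went from 0.00 in the lowest to 0.20 in the highest, and the part of GC content in the motif shares was not tested. The windows show only these letters, and say nothing of U1 elsewhere in the introns.

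Many of these calls were also made in naive mice. Of the 240 hosts higher after stimulation, 148 were also called higher among the 212 of the naive comparison, which uses other animals. Of the 321 lower hosts, 244 were also among the 344 naive ones, and no host was called in opposite directions. For features the overlaps were 278 of 647 against 396 naive calls, and 516 of 841 against 646. Exon features of segment 5 had a median of -0.47 in naive mice, with 69 of 187 lower. A test of the difference itself, stimulated minus naive, called 0 of 3305 hosts (0.00%; 179 at unadjusted p under 0.05) and 1 of 12184 features (0.00821%; 493 unadjusted) by edgeR. The host count was 9 without naive animal 3, 2 with a filter on CPM and 1 without stimulated animal 1. The feature is Ccdc107, whose locus also holds Rmrp, the RNA subunit of a ribonuclease. Its log2 ratio was -2.02 after stimulation and -3.89 in naive mice. That call was lost without stimulated animal 2 or 3, without naive animal 1 and without the animal block, and 8 features passed without naive animal 2 and 4 without naive animal 3.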

How the data were processed

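Each library came as the authors' deposited table of raw counts, whole numbers listed by Ensembl identifier. The submitters' processing notes name Trimmomatic 0.39, FastQC, HISAT2 2.2.0, StringTie 2.1.3, Salmon 1.4, DESeq2 and build mm10. For the program that counted the reads, the strand setting and the annotation: not given in the sources used here. Of 55471 identifiers, 55230 matched GENCODE M21 (GRCm38), and the 5 rows that name no gene (88.9 to 90.7% of reads in no gene) were left out. A host is the 1 opposite-strand gene that holds 50% or more of a feature's exon bases while no other holds over 10% (8067 features, 5709 hosts). Features were classed as exon or intron when 80% of that overlap fell there. Counts per feature and per host were tested with edgeR 4.0.16 in R 4.3.3 (TMM, filterByExpr at 7.81 CPM in 3 libraries, animal as block, quasi-likelihood test, Benjamini-Hochberg at 0.05) and in alternatives with DESeq2 1.42.0 and limma 3.58.1. The script recovered changes in simulated counts. SE is the log2 ratio over the square root of F. Per-animal ratios add 0.5 CPM. Input and precipitate come from 1 lysate, and deviations of same-prefix libraries correlated at 0.13, 0.219 and 0.124, each highest with its own number.

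Members and lists were chosen with earlier results of these data known. Named hosts (12 per direction) and features (8) passed the test, with log2 CPM of at least 2, no overlap of groups, 3 of 3 animals in 1 direction and no predicted symbol. Up to 4 members per list by p, Snrnp70, Malat1, Camk2a, Tagln and Syp were added, and other list members read by own symbol, and Abcc9 and Lrrc7, were named after their values were seen. Lists of ribosomal and respiratory genes came from symbols. Some members counted in the lists are not reported here by name.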

Additional observations from a re-analysis of the deposited data

Results flagged for a closer look

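Ccdc107, a feature whose locus also holds Rmrp, had a ratio of U1 to input that differed between stimulated and naive mice. Its values were 1490, 654 and 591 CPM in stimulated input and 191, 215 and 212 CPM with U1, against 1576, 1774 and 1066 CPM in naive input and 69.9, 94.2 and 130 CPM with U1. The log2 ratio was higher after stimulation by 1.88 (SE 0.30, adjusted p = 0.00724 by edgeR over all 12 libraries). The U1 values of the 2 states did not overlap, but these CPM were scaled within each state. As given above, the call was lost without some single animals and without the animal block.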

How the results depend on the processing

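Of 119 named hosts and features that passed the test, none changed sign where it was recomputed (107 without mitochondrial, ribosomal and small RNA genes, 113 with DESeq2, 117 without animal 1, all 119 in the others). Without the replicate block 101 kept their call, with DESeq2 86 of the 113 that had an adjusted p (NA was kept as NA), without animal 1, 2 or 3 100 of 117, 103 and 100, and with RLE or limma-voom 118 each and with library size 117. Without the replicate block 356 features were higher, 141 hosts higher and 210 lower. DESeq2 gave 208 and 428 features and 114 and 202 hosts. Leaving out an animal gave 379 to 454 features higher, 577 to 739 lower, and 167 to 202 hosts higher, 215 to 282 lower. Library size scaling called 290 hosts higher and 279 lower (51.0% higher, against 42.8%). Without mitochondrial, ribosomal and small RNA genes the exon share fell by 1.93 points and the share with no opposite gene rose by 0.762 points, and leaving out 1 animal moved the latter between -0.794 and 0.147 points. Differences between the states gave 0 features without the block, 0 to 8 features and 0 to 9 hosts without 1 animal, and 2 hosts with a CPM filter. The cause was not tested. Few reads were counted in genes, and 3 pairs leave 2 residual degrees of freedom and no exact p below 0.25.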
